A study of Caenorhabditis elegans with 6 samples.

Results

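The genes described here were the cytochrome P450 (CYP) genes of the nematode Caenorhabditis elegans outside the cyp-35 subfamily. They were chosen by name, as all genes on the array whose symbol starts with cyp- without the 10 cyp-35 genes, and each was read from its brightest probe. This gave 64 of the 74 cyp genes on the array and 64 of 18999 features measured. By the number in the symbol they fell into 14 subfamilies, the largest being cyp-33 with 17 members, cyp-13 with 12 and cyp-34 with 9. RefSeq lists cyp-25A5, cyp-29A1, cyp-31A1 and cyp-34A3 as pseudogenes.

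The mixture group was the wild-type strain N2, raised from eggs at 24 °C on agar with E. coli as food and with 2 organophosphates, 0.5 mg/L of the insecticide chlorpyrifos (CPF) together with 1 mg/L of diazinon (DZN). The control group was N2 raised alongside on agar with the acetone in which the pesticides were dissolved and no pesticide. Both groups are labelled as 72 h old and L3/L4, but the methods text names late L3 nematodes and fewer hours, which leaves the age unsettled. Each extract was RNA of whole nematodes pooled from several dishes. Mixture RNA was hybridised against control RNA on 6 arrays of 2 colours, 3 with the mixture in Cy5 (replicates 1 to 3) and 3 with the mixture in Cy3 (replicates 1 to 3). The study looked for responsive genes over the whole genome, and detoxification genes, CYP genes among them, were a focus of it.

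A CYP enzyme holds a haem group and inserts an oxygen atom into its substrate, with electrons that it receives from a reductase and in part from cytochrome b5. In animals the enzymes act on foreign compounds such as drugs and pesticides and on the body's own fatty acids and sterols, and the oxidised products are often passed on to conjugating enzymes. CYP enzymes can turn organophosphates with a sulphur on the phosphorus into the more toxic oxon form. Among the nematode subfamilies, cyp-29, cyp-31, cyp-32, cyp-37 and cyp-42 resemble the mammalian CYP4 family, cyp-13, cyp-25 and cyp-43 the CYP3 family, and cyp-14, cyp-33, cyp-34 and cyp-36 the CYP2 family.

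Values are given on 2 scales. A level is the normalized log2 intensity of a probe in 1 group on 1 array, and a difference is the log2 ratio of mixture over control, fitted over the 6 arrays and given with the SD of the array ratios (n = 6). A gene was called higher or lower where the adjusted p of the limma model, corrected over all 18999 features, was under 0.05. A probe was well above background where its signal exceeded the local background by more than 2 background SDs. The low end of the scale is raised by an offset in the background correction, so differences of dim probes are understated, and levels of different probes are not comparable.

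The share of spots well above background ran from 44.1 to 54.9% over the arrays in the mixture and from 47.9 to 58.1% in the control. Array ratios over all features correlated with r between 0.237 and 0.714, and the array with the mixture in Cy5 replicate 3 stood apart, with a mean r of 0.276 (lowest r among the other arrays, 0.403). Detected here means well above background on 3 or more arrays in the mixture and on 3 or more in the control, and 15 of 15 intestine genes, 9 of 10 muscle genes and 20 of 21 oocyte genes measured were detected. The headers gave 2 of the arrays, those with the mixture in Cy5 replicate 2 and in Cy3 replicate 1, the same number for the mixture extract, so the 6 arrays may hold 5 mixture extracts. All p-values rest on the spread among 6 arrays, a number that limits the precision.

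A part of the CYP genes had higher transcript levels in nematodes on the mixture. Of the 64 genes, 21 (32.8%) were called, against 13.9% of all features. Those called higher were 17 (26.6%, against 6.74% of all features), and those called lower were 4 (6.25%, against 7.13%). The share called lower was thus no larger than over all features. The 4 lower genes were the cyp-31 genes on the array, whose calls did not hold with each array left out in turn, and the 17 higher genes came from 9 other subfamilies. The largest difference was 2.47 on the log2 scale (cyp-29A2), 10 of the called genes rose by 2-fold or more and 0 fell by as much.

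Over all 64 genes the median difference was 0.10 and over all features 0.00 on the log2 scale, and 47 of the genes had a fitted ratio above 0 and 17 below. The 17 genes called higher had a median of 1.16, the 4 called lower one of -0.57. By comparison, the 10 cyp-35 genes left out here had a median of 1.42, with 7 called higher and 0 lower. In 6 of the 64 genes every mixture level was above every control level, which held for 0.658% of all features, and in 0 genes was it the other way round (0.395% of all features). Ratios lay above 0 on all 6 arrays in 15 of the genes (8.76% of all features) and below 0 on all 6 in 3 (8.62%).

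**Figure D1:**
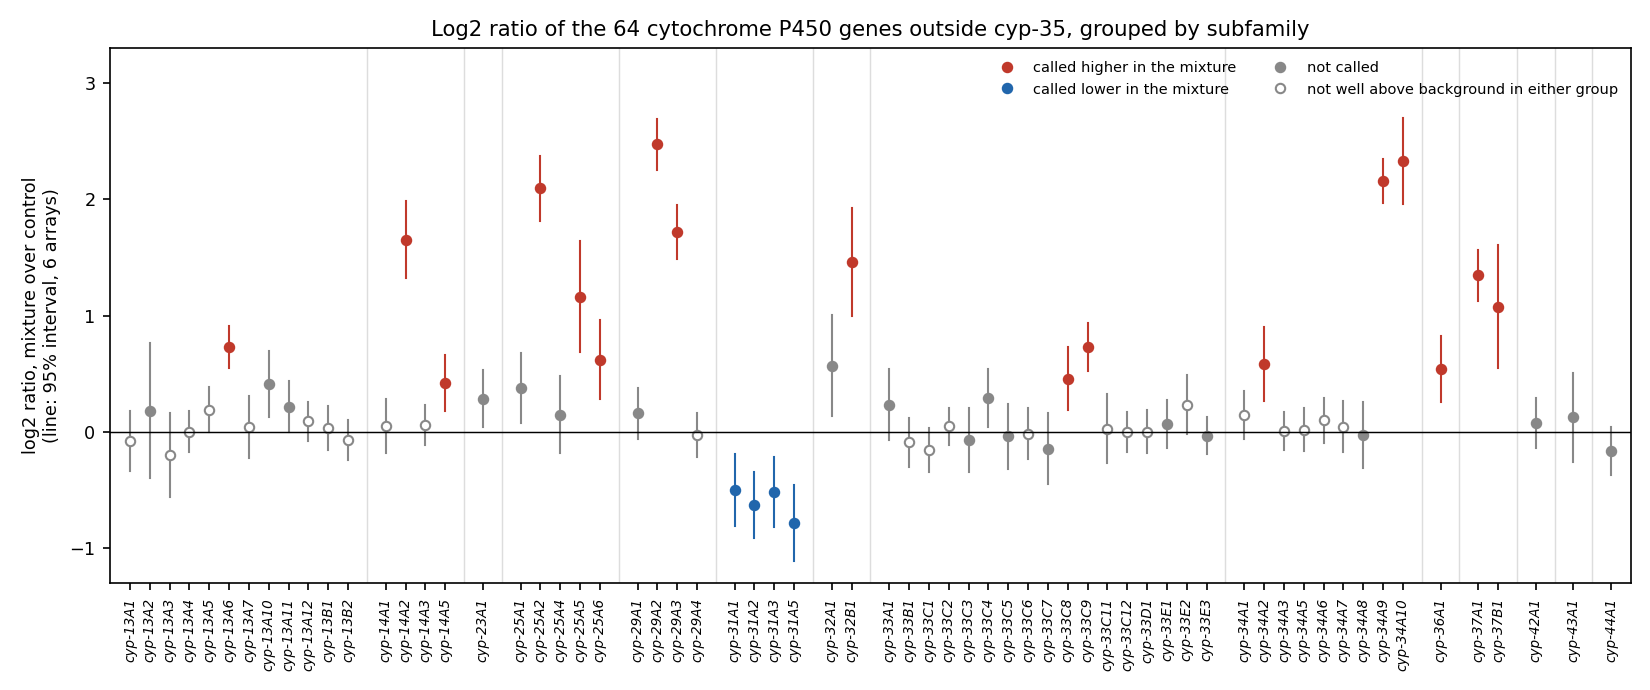
Fitted log2 ratio of mixture over control (vertical axis) for each of the 64 genes, grouped by subfamily along the horizontal axis, with 95% intervals over 6 arrays, red for genes called higher, blue for genes called lower, grey for genes not called, and open symbols for genes that passed the background limit in neither group. The largest ratios were those of cyp-29A2 (2.47), cyp-34A10 (2.33), cyp-34A9 (2.16) and cyp-25A2 (2.10), and the 4 cyp-31 genes lay between -0.78 and -0.50.

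Detection differed between subfamilies and set what could be seen. In 24 of the 64 genes neither group was well above background on any array (34% of all features), among them 8 of 12 cyp-13 genes, 8 of 17 cyp-33 genes and 5 of 9 cyp-34 genes, and 0 of these 24 were called. For such genes a change in transcript level was not detectable at this signal. Detected in both groups were 27 genes (53.2% of all features), while 4 genes passed the background limit on 1 or more arrays in the mixture only and 1 in the control only.

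By the file headers the arrays came from 2 slide series and were scanned on different days. Within the 4 arrays of the later series 11 genes were called higher and 1 lower. This kept 10 of the 17 higher calls and 0 of the 4 cyp-31 calls, so the 1 lower gene was not a cyp-31 gene. Within the 3 arrays that shared a scan day (1 of them with the mixture in Cy5) 18 were called higher and 3 lower. That fit of 2 terms to 3 arrays rests on little residual spread per gene. The share of all features called in it is not given here. The earlier series held 2 arrays, both with the mixture in Cy5, so it gave no separate value. With the 2 arrays of the shared mixture extract averaged, 13 genes were called higher and 3 lower, and the calls of cyp-14A5, cyp-25A6, cyp-33C8, cyp-34A2 and cyp-31A1 were lost (adjusted p from 0.0563 to 0.0798). For this fit too the share of all features called is not given.

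The CYP4-like subfamilies held both the largest increase and all of the decreases. Of their 13 genes 5 were called higher (38.5%), 4 lower (30.8%) and 4 in neither direction.

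Among these, cyp-29A2 had the highest ratio of the 64 genes. Its level was between 11.27 and 12.58 (median 11.81) in the mixture and between 8.47 and 9.90 (median 9.33) in the control. The groups did not overlap, and the ratio was 2.47 ± 0.28 (5.55-fold, adjusted p = 1.9e-05), from 2.04 to 2.81 over the arrays. Its neighbour in name, cyp-29A3, whose product has been linked in this nematode to the making of signalling compounds from polyunsaturated fatty acids, ran from 8.01 to 9.44 (median 8.45) in the mixture against 6.40 to 7.25 (median 6.80) in the control. Again no mixture value reached down to the control, with a ratio of 1.72 ± 0.28 (3.29-fold, adjusted p = 0.000173). The remaining cyp-29 genes were not called: the pseudogene cyp-29A1 was well above background on all arrays of both groups with a ratio of 0.16 ± 0.23 (adjusted p = 0.316), and cyp-29A4 was not well above background in either group.

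Both cyp-37 genes were higher. For cyp-37A1 the level was 8.49 to 10.73 (median 9.26) in the mixture and 6.93 to 9.33 (median 8.05) in the control, so that the groups overlapped between arrays, while on each array the mixture was above its control (1.35 ± 0.21, 2.55-fold, adjusted p = 0.000419). In contrast, cyp-37B1 differed much between arrays, with 7.48 to 10.52 (median 9.93) in the mixture and 6.60 to 10.67 (median 8.05) in the control. Its ratio was 1.08 ± 0.89 (2.11-fold, adjusted p = 0.0229), with 2.61 on the array with the mixture in Cy3 replicate 3 and -0.15 on that with the mixture in Cy5 replicate 3. The call of cyp-37B1 was lost on leaving out the array of Cy5 replicate 1 or 2 or of Cy3 replicate 2 or 3 (adjusted p from 0.0599 to 0.083).

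The level of cyp-32B1 was 7.21 to 9.47 (median 8.09) in the mixture and 6.44 to 7.21 (median 6.71) in the control, without overlap. The ratio of 1.46 ± 0.67 (2.75-fold, adjusted p = 0.00654) spread from 0.75 to 2.72, the highest being that of Cy3 replicate 3. The other gene of this subfamily, cyp-32A1, had a ratio of 0.57 ± 0.54 and was not called (adjusted p = 0.0861), and cyp-42A1 had one of 0.08 ± 0.23 (adjusted p = 0.653).

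The 4 cyp-31 genes on the array were called lower in the mixture, though none of these calls held under all alternatives. In C. elegans cyp-31A2 and cyp-31A3 act in the germ line in making the lipid-rich layer of the eggshell. The level of cyp-31A5 was 9.66 to 10.98 (median 10.64) in the mixture and 10.90 to 11.88 (median 11.27) in the control, with a ratio of -0.78 ± 0.39 (1.72-fold lower, adjusted p = 0.0153). For cyp-31A2 the level was 10.10 to 10.82 (median 10.50) in the mixture and 10.66 to 11.44 (median 11.18) in the control, with a ratio of -0.63 ± 0.31 (1.55-fold lower, adjusted p = 0.0182). Both overlapped between arrays but lay below the control on each of the 6 arrays.

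The level of cyp-31A3 was 6.71 to 10.86 (median 10.48) in the mixture and 6.99 to 11.56 (median 11.06) in the control, and the ratio was -0.51 ± 0.35 (1.43-fold lower, adjusted p = 0.0384). Its lowest value in both groups came from the spot on the array of Cy5 replicate 1, without which the ratio was -0.55 and no longer called (adjusted p = 0.081). The pseudogene cyp-31A1 had levels of 9.60 to 10.18 (median 10.11) in the mixture and 9.97 to 10.99 (median 10.55) in the control, and a ratio of -0.50 ± 0.36 (1.41-fold lower, adjusted p = 0.0470), above 0 on 1 array.

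A second probe of cyp-31A2 (ratio -0.55, adjusted p = 0.0329) and of cyp-31A3 (-0.63, adjusted p = 0.00473) was lower too, whereas that of cyp-31A1 had a ratio of -0.33 and was not called (adjusted p = 0.138). The cyp-31 genes are close copies of one another, and how specific each probe is was not tested, so the 4 values may not be independent. When arrays were left out in turn, the calls of cyp-31A1, cyp-31A2 and cyp-31A3 were lost without any 1 array except Cy5 replicate 3 (adjusted p from 0.0563 to 0.165), and that of cyp-31A5 was lost without Cy5 replicate 1, Cy3 replicate 1 or Cy3 replicate 3 (adjusted p from 0.05 to 0.0725).

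The array medians of the cyp-31 genes were set beside those of an oocyte list, as a description. The median ratio of the 4 cyp-31 genes was -0.62, -1.01 and -0.11 on the arrays with the mixture in Cy5 (replicates 1 to 3) and -0.56, -0.42 and -0.88 on those with the mixture in Cy3. A list of oocyte genes had medians of -1.85, -2.19 and -0.21 and then of -0.64, -0.99 and -1.44 on the same arrays. Both were nearest to 0 on Cy5 replicate 3 and farthest from it on Cy5 replicate 2.

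Of 21 oocyte genes measured 18 were lower, the oocyte yolk receptor gene rme-2 among them (-1.81, adjusted p = 0.0113), and the list's summed level was 13.88 to 15.93 in the mixture against 15.92 to 16.44 in the control. Likewise 6 of 6 vitellogenin (yolk protein) genes were lower, with a list median of -1.64, and 16 of 21 sperm genes, with one of -0.86. Control spots of vit-2 to vit-6 held saturated pixels (at most 5.4% for vit-2 and 50.7% for vit-4) and their mixture spots 0, so these falls may be understated. The oocyte gene chs-1 (chitin synthase of the eggshell) was not well above background in either group. Whether fewer cells of a type or less RNA per cell lay behind lower values cannot be told apart in RNA of whole animals, and the part of germ line content in the cyp-31 values was not tested. Whether the groups differed in stage was not tested either.

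The 17 genes called higher had array medians of 1.32, 1.05 and 0.98 with the mixture in Cy5 and of 1.11, 1.14 and 1.56 with the mixture in Cy3. Their median too was nearest to 0 on Cy5 replicate 3. That of the cyp-35 genes was highest there (2.18, against 0.59 to 1.98 on the other arrays). That all medians of the 17 genes were above 0 follows from how those 17 were chosen. A list of 15 intestine genes, from the main tissue of nematode detoxification, had a median of 0.17 with 7 higher and 1 lower, and array medians from 0.13 (Cy5 replicate 3) to 0.49. This list leaves out the 6 vitellogenin genes, which were listed apart and were all lower (median -1.64). A list of 10 muscle genes had a median of 0.21 with 1 higher and 0 lower, and array medians from 0.11 to 0.37. The summed level of the intestine list was 16.79 to 17.27 in the mixture and 16.32 to 16.77 in the control. Such a sum is weighted to the brightest probes, here asp-1, asp-3 and cpr-1, which were all called higher. The 7 higher genes of the intestine list had ratios from 0.35 (vha-6) to 1.13 (asah-1), and fat-7 was lower (-0.66). Its 7 uncalled genes, with the fate-setting factors elt-2 and elt-7, had ratios from 0.04 to 0.17. The part of intestine or germ line content in the values of the higher CYP genes was not tested.

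**Figure D2:**
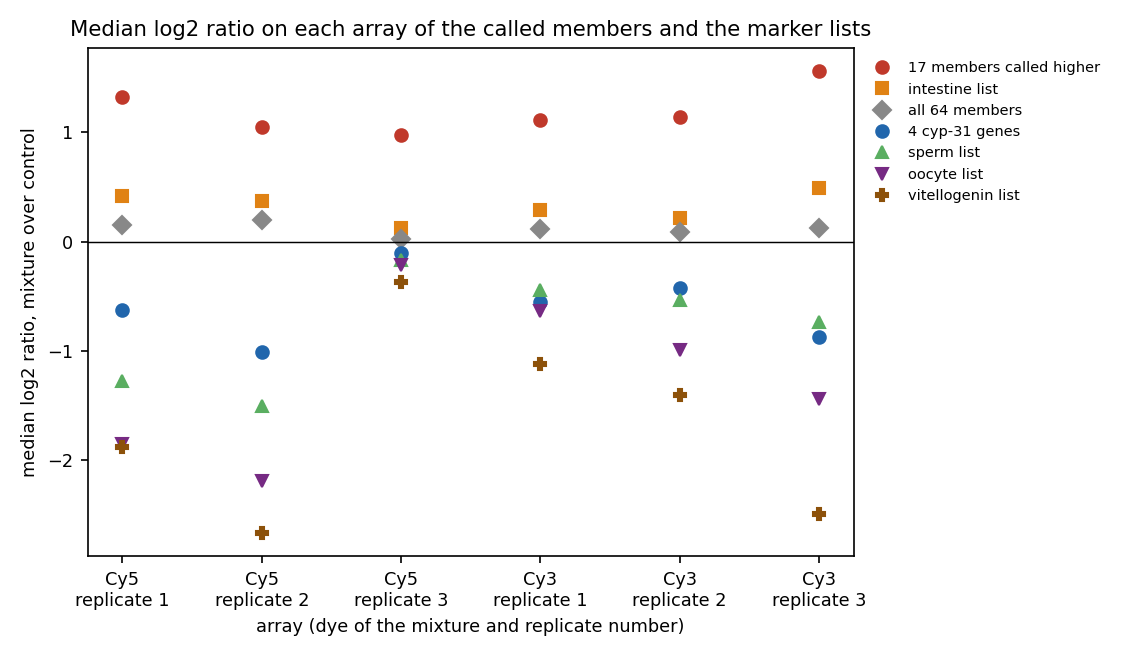
Median log2 ratio of mixture over control (vertical axis) on each of the 6 arrays (horizontal axis, by the dye of the mixture and replicate number) for the genes called higher, the 4 cyp-31 genes, all 64 genes and the lists of intestine, sperm, oocyte and vitellogenin genes. The genes called higher lay between 0.98 and 1.56, the cyp-31 genes between -1.01 and -0.11, and each of the sets drawn was nearest to 0 on Cy5 replicate 3. Not drawn are the cyp-35 genes, whose median was highest on that array (2.18), and the muscle list (0.30 there, lowest 0.11).

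Of the 18 CYP3-like genes, 4 were called higher (22.2%) and 0 lower. The largest change was that of cyp-25A2, with levels of 9.20 to 10.85 (median 10.40) in the mixture and 7.54 to 8.71 (median 8.14) in the control. No values overlapped, and the ratio was 2.10 ± 0.33 (4.27-fold, adjusted p = 0.000164). In the same subfamily the pseudogene cyp-25A5 was at 7.44 to 10.30 (median 8.41) in the mixture and 6.68 to 8.33 (median 7.82) in the control, with a ratio of 1.17 ± 0.69 (2.24-fold, adjusted p = 0.0142). Its ratio was 1.95 and 1.99 on the 2 arrays of the earlier slide series and 0.46 to 1.29 on the other 4, and the call was lost without Cy5 replicate 2, Cy3 replicate 1 or Cy3 replicate 3 (adjusted p from 0.0512 to 0.0653). In the authors' table its ratio was 0.30 (adjusted p = 0.126).

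The gene cyp-25A6 was well above background on 4 arrays in the mixture and on 0 in the control, and was called higher (adjusted p = 0.0308). Its bound was 1.28-fold, as a mean over arrays and for the processing used here only. That bound sets the mixture against the lowest signal that passed as above background, or the control level where that was higher. The call of cyp-25A6 was lost without any 1 array except Cy5 replicate 3 (adjusted p from 0.0632 to 0.108). Its ratio was 0.62 here, 0.28 without background correction (adjusted p = 0.246) and 0.27 in the authors' table (adjusted p = 0.106). Neither cyp-25A1 (0.38 ± 0.35, adjusted p = 0.0939) nor cyp-25A4 (0.15 ± 0.39, adjusted p = 0.566) was called. The gene cyp-25A1, which lies beside cyp-25A2 on chromosome III, was well above background on 3 arrays in the mixture and on 1 in the control.

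In the cyp-13 subfamily 1 of 12 genes was called. The level of cyp-13A6 was 7.02 to 8.45 (median 7.42) in the mixture and 6.44 to 7.77 (median 6.65) in the control, which overlapped between arrays, and the ratio of 0.73 ± 0.23 (1.66-fold, adjusted p = 0.00251) was above 0 on all 6. It lies in a row of 7 neighbouring genes on chromosome II, cyp-13A1 to cyp-13A7, of which the other 6 were not called (ratios from -0.19 to 0.19). In this row cyp-13A7, which is known to be induced by the drug rifampicin in C. elegans, had a ratio of 0.04 ± 0.32 (adjusted p = 0.869). The gene cyp-13A12, known for its role in the behaviour of C. elegans on return of oxygen, had one of 0.09 ± 0.11 (adjusted p = 0.478). Neither was well above background in either group, and cyp-43A1 had a ratio of 0.13 ± 0.45 (adjusted p = 0.693).

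Of the 31 CYP2-like genes, 8 were called higher (25.8%) and 0 lower. The strongest were cyp-34A10 and cyp-34A9, which lie beside each other on chromosome V. The level of cyp-34A10 was 8.22 to 8.95 (median 8.55) in the mixture, well above background on all 6 arrays, and 6.003 to 6.42 (median 6.25) in the control, well above background on 0. With the processing used here it was at least 3.78-fold higher as a mean over arrays, with a ratio of 2.33 ± 0.46 (adjusted p = 0.000341). Over the alternatives its ratio ran from 1.44 to 4.87.

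The level of cyp-34A9, also known as dod-16 and as a gene downstream of the FOXO factor DAF-16, was 9.49 to 11.42 (median 10.24) in the mixture and 7.69 to 9.50 (median 7.87) in the control. The ranges touched only through the highest control value, that of Cy5 replicate 3, and the ratio was 2.16 ± 0.29 (4.46-fold, adjusted p = 1.9e-05). Among the other 4 genes of this row on chromosome V, cyp-34A8 was well above background on all arrays of both groups and had a ratio of -0.02 (95% interval from -0.30 to 0.26, adjusted p = 0.941). For cyp-34A5, cyp-34A6 and cyp-34A7 neither group passed the background limit.

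In the cyp-14 subfamily cyp-14A2 was at 8.05 to 9.52 (median 8.95) in the mixture and 6.56 to 7.64 (median 7.30) in the control, with no overlap and a ratio of 1.65 ± 0.38 (3.14-fold, adjusted p = 0.000988). On chromosome X it lies between cyp-14A1 (0.05 ± 0.23) and cyp-14A3 (0.06 ± 0.10), which passed the background limit in neither group and were not called (adjusted p = 0.797 and 0.659).

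Smaller increases were called for cyp-33C9 (0.73 ± 0.19, adjusted p = 0.00438), cyp-34A2 (0.58 ± 0.41, adjusted p = 0.0305), cyp-36A1 (0.55 ± 0.38, adjusted p = 0.0271), cyp-33C8 (0.46 ± 0.30, adjusted p = 0.0382) and cyp-14A5 (0.42 ± 0.33, adjusted p = 0.0367). Both cyp-34A2 and cyp-36A1, a gene that acts downstream of the hypoxia factor HIF-1 in C. elegans, were well above background on 3 arrays in the mixture and on 2 in the control. For cyp-33C9 the level was 7.60 to 8.80 (median 8.26) in the mixture and 6.71 to 8.001 (median 7.59) in the control, and its call held with any 1 array left out. Those of cyp-14A5 and cyp-33C8 were lost without any 1 array except Cy5 replicate 3 (adjusted p from 0.064 to 0.134) and under median centring (a single shift per array instead of a loess curve), which gave 0.15 for cyp-14A5 (adjusted p = 0.254) and 0.29 for cyp-33C8 (adjusted p = 0.082). The calls of cyp-34A2 and cyp-36A1 were lost without Cy5 replicate 1, Cy5 replicate 2 or Cy3 replicate 3, that of cyp-34A2 also without Cy3 replicate 1 and that of cyp-36A1 also without Cy3 replicate 2 (adjusted p from 0.0701 to 0.109).

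The cyp-33 subfamily, the largest, had 2 of 17 genes called and a median ratio of 0.00. Its row of 5 neighbours on chromosome V, cyp-33C3 to cyp-33C7, had ratios from -0.14 to 0.29 with 0 called. Here cyp-33E2, which in C. elegans makes a signalling compound from eicosapentaenoic acid in the pharynx, was not well above background in either group (0.24 ± 0.27, adjusted p = 0.205). Of the genes outside these families, cyp-44A1, which resembles the mitochondrial CYP enzymes, was well above background on all arrays and had a ratio of -0.17 ± 0.18 (95% interval from -0.37 to 0.04, adjusted p = 0.276), and cyp-23A1 one of 0.29 ± 0.25 (adjusted p = 0.116). With median centring cyp-44A1 was called lower (-0.49, adjusted p = 0.0148), as it was in the authors' table (-0.17, adjusted p = 0.0205).

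**Figure D3:**
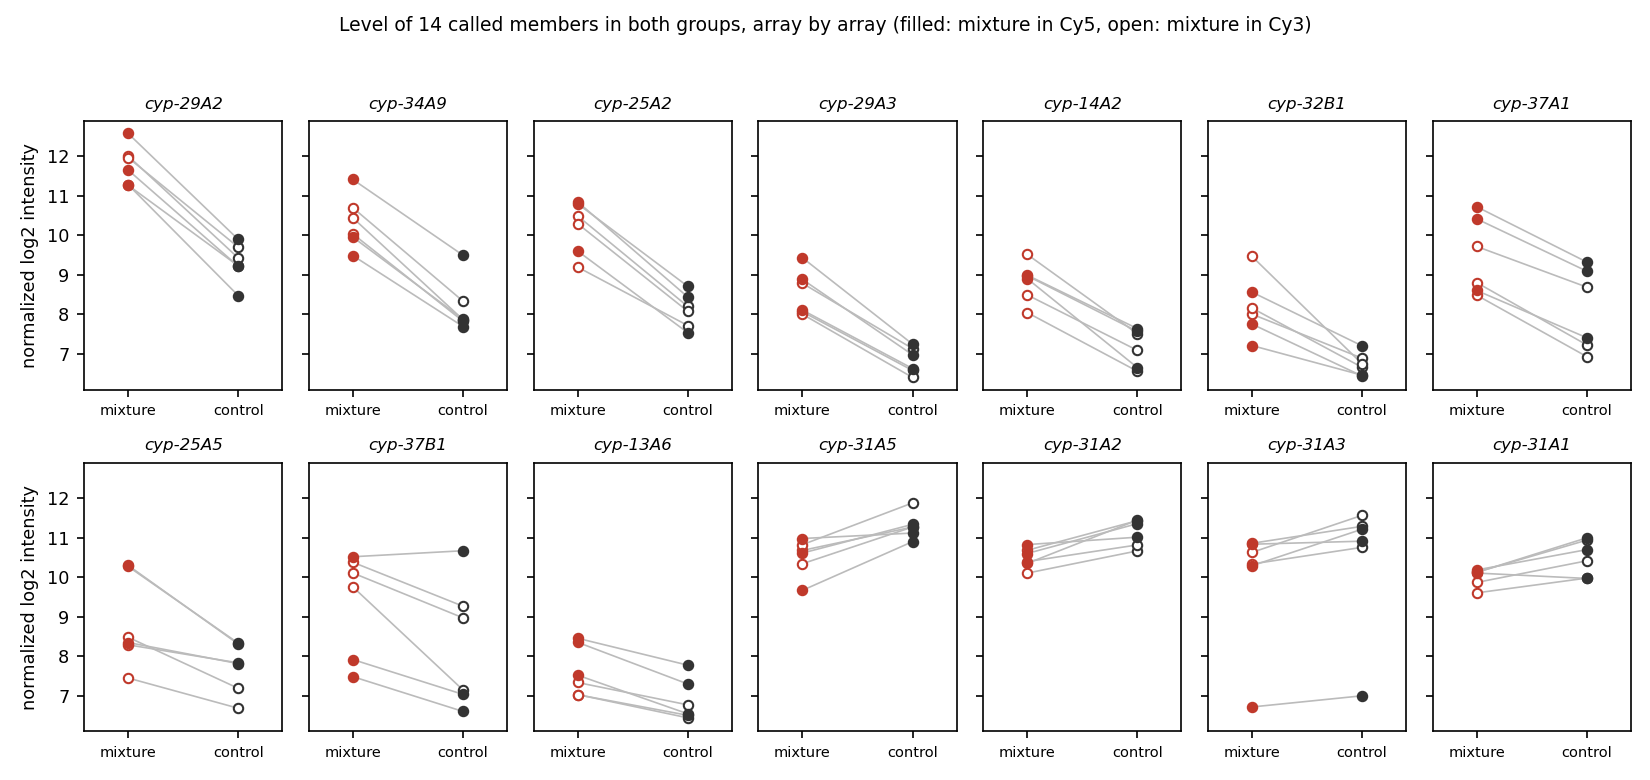
Normalized log2 intensity (vertical axis) of the 10 genes with the largest increase and the 4 with a decrease among called genes well above background in both groups, with mixture left of control in each panel, lines joining the values of 1 array, filled symbols for arrays with the mixture in Cy5 and open ones for the mixture in Cy3. The groups do not overlap for cyp-29A2, cyp-25A2, cyp-29A3, cyp-14A2 and cyp-32B1, and 1 array gave low values of cyp-31A3 in both groups (6.71 in the mixture and 6.99 in the control).

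Ratios of genes of 1 subfamily were also set side by side array by array, for the 11 pairs of a called and an uncalled gene that were both detected in both groups. As the calls chose these pairs, their differences are a description and were not tested. The ratio of cyp-34A9 exceeded that of cyp-34A8 by 2.18 ± 0.46 (from 1.58 to 2.97 over the arrays), that of cyp-25A2 exceeded that of cyp-25A4 by 1.94 ± 0.45, and that of cyp-29A2 exceeded that of cyp-29A1 by 2.31 ± 0.15. The smallest was the difference of cyp-33C8 and cyp-33C4 (0.17 ± 0.28, above 0 on 3 arrays). These are ratios of different probes, a dim probe may differ less than its transcript, and whether probes of the close cyp-25A and cyp-34A copies bind more than 1 transcript was not tested.

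By chromosome, 31 of the 64 genes lie on V, 10 of them called higher, and 9 on IV, which held the 4 lower genes and 2 higher ones. On chromosome II 2 of 11 were higher, and on I, III and X 1 each of 1, 5 and 7.

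**Figure D4:**
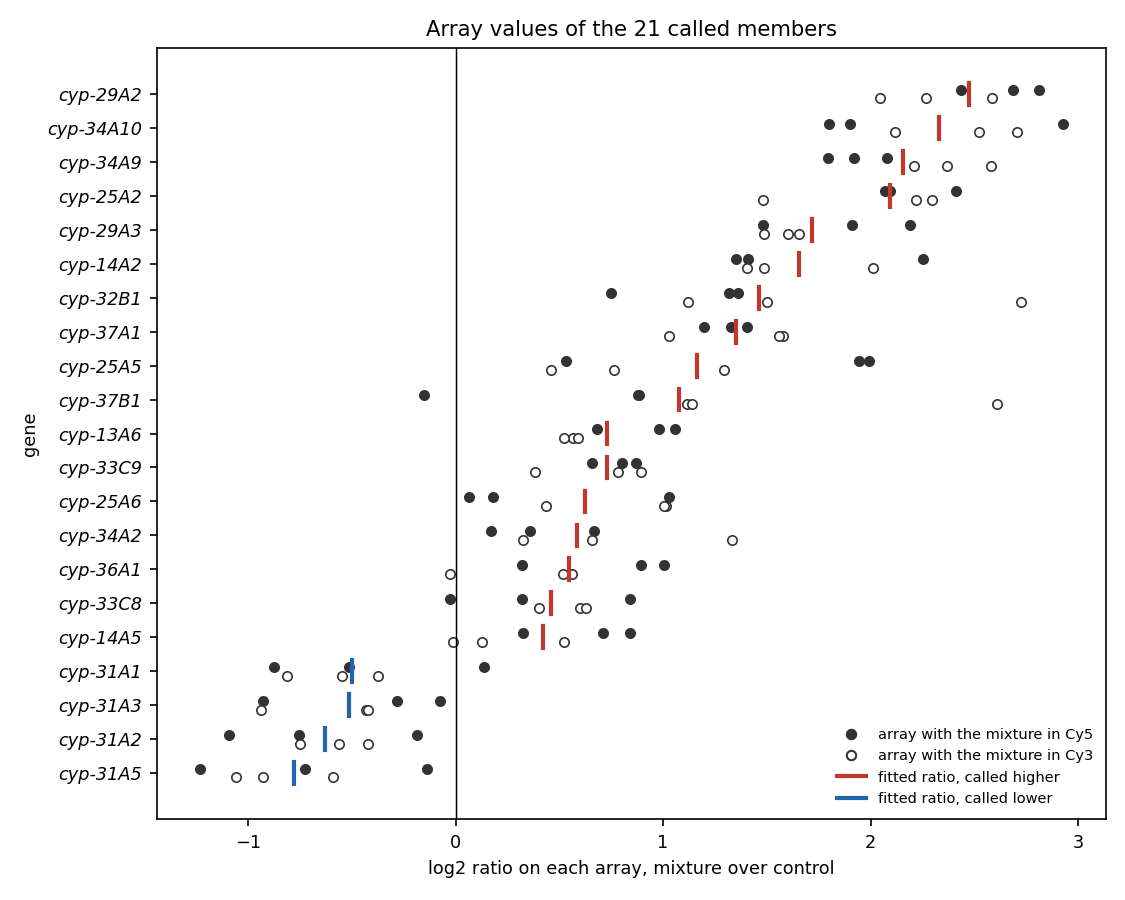
Log2 ratio of mixture over control (horizontal axis) on each of the 6 arrays for the 21 called genes, ordered by their fitted ratio (vertical bar, red for higher and blue for lower), with filled symbols for arrays with the mixture in Cy5 and open ones for the mixture in Cy3. Of the 17 genes called higher 13 have all 6 arrays above 0, and the widest spread is that of cyp-37B1, from -0.15 to 2.61.

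How firmly a gene was called differed. The calls of 10 of the 17 higher genes (cyp-29A2, cyp-34A10, cyp-34A9, cyp-25A2, cyp-29A3, cyp-14A2, cyp-32B1, cyp-37A1, cyp-13A6 and cyp-33C9) held whichever array was left out, while those of the other 7 higher genes and of the 4 lower ones did not. In every alternative in which they were tested, only the calls of cyp-29A2, cyp-34A10, cyp-25A2 and cyp-29A3 held. Those of cyp-14A2, cyp-32B1, cyp-34A9, cyp-37A1, cyp-13A6 and cyp-33C9 were lost under the kind of test used in the study after Benjamini-Hochberg adjustment. Those of cyp-37A1, cyp-13A6 and cyp-33C9 were lost at the study's unadjusted threshold too, and that of cyp-33C9 with plain background subtraction. The model in the study's methods has the toxicant as its only term and leaves out the pairing of channels on an array. Spread in level between arrays can therefore cost a call there. Dye effects were called in 0 of the 64 genes, and 0 of them had a saturated pixel.

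Genes whose products work with the CYP enzymes were higher in part. The single CYP reductase gene emb-8 was at 9.71 to 12.97 (median 12.14) in the mixture and 9.38 to 12.38 (median 11.58) in the control, with a ratio of 0.55 ± 0.22 (adjusted p = 0.0101). The cytochrome b5 gene cytb-5.1 was at 12.52 to 13.37 (median 12.63) in the mixture and 10.78 to 12.16 (median 11.31) in the control. These groups did not overlap, with a ratio of 1.45 ± 0.25 (adjusted p = 0.000248), while cytb-5.2, also a cytochrome b5 gene, had a ratio of 0.02 ± 0.27 (adjusted p = 0.935).

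C. elegans cannot make haem and takes it up from its food, mainly in the intestine. Of 6 genes of haem uptake and transport measured, 4 were higher and 0 lower: hrg-7, a secreted protease-like signal between tissues (1.03 ± 0.39, adjusted p = 0.00702), the haem transporters hrg-1 (0.82 ± 0.34, adjusted p = 0.00124) and hrg-4 (0.50 ± 0.35, adjusted p = 0.0188), and the intestinal haem exporter mrp-5 (0.38 ± 0.19, adjusted p = 0.0255). Calls of emb-8, cytb-5.1, hrg-1 and hrg-7 held whichever array was left out, but not under the study's kind of test after Benjamini-Hochberg adjustment. At the study's unadjusted threshold the calls of emb-8, hrg-1 and hrg-7 were lost too. Those of hrg-4 and mrp-5 were lost without Cy5 replicate 1, Cy5 replicate 2 or Cy3 replicate 3, and without Cy3 replicate 2 for hrg-4 or Cy3 replicate 1 for mrp-5 (adjusted p from 0.0597 to 0.0996). With median centring the ratios of mrp-5 (0.07, adjusted p = 0.628), hrg-4 (0.19, adjusted p = 0.145) and emb-8 (0.30, adjusted p = 0.0762) were not called, and with plain background subtraction hrg-7 and emb-8 were not (adjusted p = 0.0599 and 0.0742).

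The CYP gene daf-9, which carries no cyp name and makes the steroid hormone dafachronic acid, was not well above background in either group (-0.26 ± 0.78, adjusted p = 0.531). Its ratio was -1.83 on the array with the mixture in Cy5 replicate 3 and -0.19 to 0.26 on the others. Of the 7 genes of hormone synthesis and its receptor, including the receptor gene daf-12 (-0.01 ± 0.25, adjusted p = 0.981) and the oxygenase gene daf-36 (0.23 ± 0.51, adjusted p = 0.137), 0 were called.

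Among 12 regulators that have been linked to detoxification or CYP expression, 2 were called higher and 0 lower, both without a stable call. The gene of the hypoxia factor hif-1 had a ratio of 0.49 ± 0.73 (adjusted p = 0.0290), below 0 on all 3 arrays with the mixture in Cy5 (-0.18 to -0.04) and above 0 on all 3 with the mixture in Cy3 (0.79 to 1.60). That of wdr-23, a repressor of SKN-1, had one of 0.31 ± 0.13 (adjusted p = 0.0409), which median centring turned to -0.0058, while it left 0.22 for hif-1 (adjusted p = 0.177). Each of these calls was lost without any 1 array except Cy5 replicate 3. The detoxification factor skn-1 (0.19 ± 0.31, adjusted p = 0.279), the Mediator subunit gene mdt-15 (-0.14 ± 0.18, adjusted p = 0.391) and the receptor gene nhr-8 (0.06 ± 0.27, adjusted p = 0.805) were not called, and ahr-1, the aryl hydrocarbon receptor gene, was not well above background in either group.

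**Figure D5:**
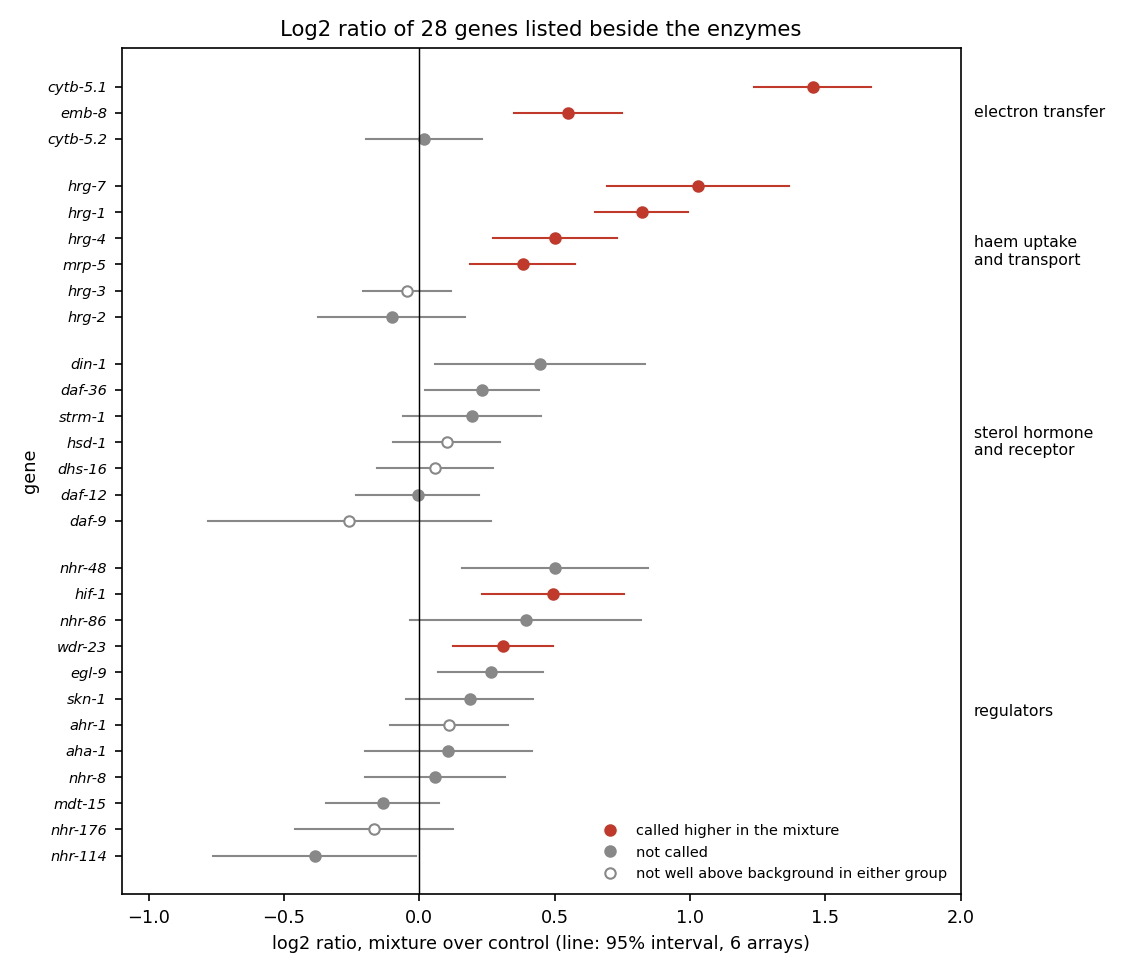
Fitted log2 ratio of mixture over control (horizontal axis) with 95% intervals over 6 arrays for 28 genes of electron transfer to CYP enzymes, haem transport, sterol hormone synthesis and regulation (vertical axis), red for genes called higher, grey for genes not called and open symbols for genes not well above background in either group. Electron transfer and haem transport hold 6 of the 8 called genes, led by cytb-5.1 (1.45) and hrg-7 (1.03).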

How the data were processed

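Per the file headers, the deposited files of each scan give the intensity of every spot (foreground and background medians, background SD), the percent of saturated pixels and a spot flag, without normalization. The authors' table holds log2 ratios made, per the study's methods, with loess and Aquantile normalization, and the submitters' processing notes name limma 3.2.3. Its columns correlated with the ratios used here with r from 0.846 to 0.921 as mixture over control, with medians from -0.00447 to -0.00010 and 5.24 to 21.2% of values missing, and the background correction behind it was not stated in what was read here. The deposited flags have no stated meaning, and spots of flag 3 alone were an alternative.

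From each of 23232 spots, 742 control or empty ones were left out after normalization with weight 0. Probes were named from the platform table or the RefSeq gene table (WBcel235, used for names, chromosomes and neighbours), and 35 with disagreeing names stayed unnamed. Foreground medians were corrected with normexp (offset 50), normalized by loess within and Aquantile between arrays, and turned to mixture over control (limma 3.58.1, R 4.3.3). lmFit and eBayes fitted 1 term for the mixture and 1 for the dye of each gene to all 18999 features, with Benjamini-Hochberg adjustment over all of them, two-sided. The steps were tested on simulated data. Where a group was never well above background, a fold is a bound against the lowest signal well above background on each array. Where the group's own level was higher than that signal, the level was used instead. Each array's replicate number names it and pairs nothing.

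All called genes are named, with levels in full for the 10 largest increases and all decreases among called genes that passed the background limit on 3 or more arrays in each group, and uncalled genes of known function are given. Members and lists were chosen with earlier results of these data known, and the gene pairs set side by side were added after seeing the data. Alternatives were other background corrections and normalizations, no dye term, filters, the authors' table, blocks and batches, the study's kind of test and leaving out each array.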

Additional observations from a re-analysis of the deposited data

Results flagged for a closer look

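Over the 75 sets of 6 array values examined (ratios of the named genes and levels of the called CYP genes), 4 held a value far from the other 5, and chance marks about 1 set in 20. The ratio of cyp-25A2 was 1.48 on the array with the mixture in Cy3 replicate 1, against 2.07 to 2.41 on the others. On the array with the mixture in Cy5 replicate 1 the level of cyp-31A3 was 6.711 in the mixture (10.29 to 10.85 on the others) and 6.994 in the control (10.75 to 11.56 on the others). The control level of cyp-34A9 was 9.499 on the array with the mixture in Cy5 replicate 3, against 7.694 to 8.335 on the others.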

How the results depend on the processing

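In 23 alternatives a call of the 21 genes was never turned to the other direction. Counts below are genes higher and lower among the CYP genes, then all features called (17, 4 and 2636 as reported, with a median ratio of 0.10). They were 9, 0 and 228 with plain background subtraction (54 of the genes tested, median 0.52, with 24 higher and 5 lower at an unadjusted p under 0.05), and 11 and 2 without background correction. Median centring called 4118 features and turned the ratio of wdr-23 to -0.0058. The median was 0.42 with dim probes left out and 0.40 with spots of flag 3 alone (6 higher, 16 genes tested), and 0.0332 in the authors' table. The replicate block gave 12, 0 and 950 (4 lower at an unadjusted p under 0.05). The same-numbered arrays did not deviate together (r of -0.11, -0.01 and -0.23). The slide series as a block called 4609 features, by construction the fit without Cy5 replicate 3, the arrays of the later series gave 11, 1 and 891, and the scan day as a block 2 lower. The methods' t-test gave 4, 0 and 56 after Benjamini-Hochberg adjustment (16 higher and 3 lower at an unadjusted p under 0.05) and 8, 2 and 583 at the methods' threshold. Leaving out 1 array gave 10 (without Cy5 replicate 2 or Cy3 replicate 3) to 21 higher, 0 (without Cy5 replicate 1, Cy3 replicate 1 or Cy3 replicate 3) to 4 lower, 535 (without Cy3 replicate 3) to 4609 features and medians from 0.08 to 0.11, the highest counts being those without Cy5 replicate 3. Causes were not tested.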
